A study of Drosophila melanogaster with 4 samples.

Results

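Compact regions of H3K9acS10P on the X chromosome of Drosophila melanogaster were taken from the list of enriched regions that was deposited for the whole series. A region was a member when it lay on X, was narrower than 5000 bp and had its midpoint between bases 1000001 and 20422827 of the FlyBase r5 build, which leaves out the outermost 1 Mb on the telomere-facing side and 2 Mb on the centromere-facing side. The rule kept 1804 of the 15374 regions of the list, and of the 2325 on X. It left out 251 X regions for their width alone, 248 for their position alone and 22 for both. Members were thus chosen by their measured width and position in this list, so their number, width and place are a description and carry no test. The widest members spanned 4989 and 4997 bp, with scores of 0.69 and 0.81, and the narrowest regions left out spanned 5000 and 5001 bp, with scores of 0.93 and 0.61. At the edges of the interval, the first member was X 1020027 to 1021078 and the last compact region before it was X 994998 to 996138. The last member was X 20387228 to 20390132, and the next compact region was X 20423969 to 20424980.

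The samples were wild-type Oregon-R embryos aged 14 to 16 h, fixed with formaldehyde. Both ChIP samples, replicates 1 and 2, were made with a single lot of an antibody to H3K9acS10P, and each had its own input sample. No treatment or other genotype was compared, and whole embryos mix all their cell types. Whether each replicate was collected from its own batch of embryos is not stated in the labels, and differences between the replicates may be technical.

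The epitope combines acetylation of lysine 9 of histone H3, a mark of the promoters of active genes, with phosphorylation of serine 10 next to it. Serine 10 phosphorylation is dense on condensed mitotic chromosomes, and in interphase it is laid down in Drosophila by the kinase JIL-1. JIL-1 is known to be enriched along the male X, where the MSL dosage compensation complex raises transcription. The sex of the embryos is not given in the labels. Genes at the regions were not analysed here, because no gene annotation of the r5 build was used, and members are named by position.

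Compact regions made up most of the marked X by number and by length. They were 87.8% of the 2055 regions of the interior, and held 3.60 Mb, which was 62.1% of the bases in interior regions and 18.6% of the interior itself. The other 251 interior regions were 5000 bp or wider, and 54 of these were broad domains, here meaning regions wider than 10 kb. Broad domains held 14.3% of the covered bases. The width of members ran from 1001 to 4997 bp with a median of 1668.5 bp, and the middle of the distribution, between the quartiles, lay from 1265.25 to 2439.5 bp. The authors' score of each region, on a scale not given in the sources used here, ran from 0.16 to 1.96 with a median of 0.53. In all, 1336 members, or 74.1%, scored at or above the median of the whole list, against 50.0% of all regions by definition of a median. Among compact regions in the interiors of the 4 large autosomal arms, the share was 39.8%.

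Along the chromosome, compact regions occurred in every full 500 kb window of the interior, but their density varied several fold. Over the 38 full windows the count was 46.3 ± 16.1 (SD over windows), from 19 to 89. The densest window was X 18000001 to 18500000 with 89 compact regions, followed by X 1000001 to 1500000 with 88. Next came X 5500001 to 6000000 and X 19000001 to 19500000 with 66 each, and X 11500001 to 12000000 and X 15500001 to 16000000 with 62 each. The densest windows thus lay near both ends of the interior and at several places between. The sparsest was X 3000001 to 3500000 with 19, then X 5000001 to 5500000 with 21 and X 12000001 to 12500000 with 26. X 9000001 to 9500000 held 29, and X 6000001 to 6500000 and X 7000001 to 7500000 held 31 each. A sparse window could adjoin a dense one, as X 5000001 to 5500000 did X 5500001 to 6000000.

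**Figure D1:**
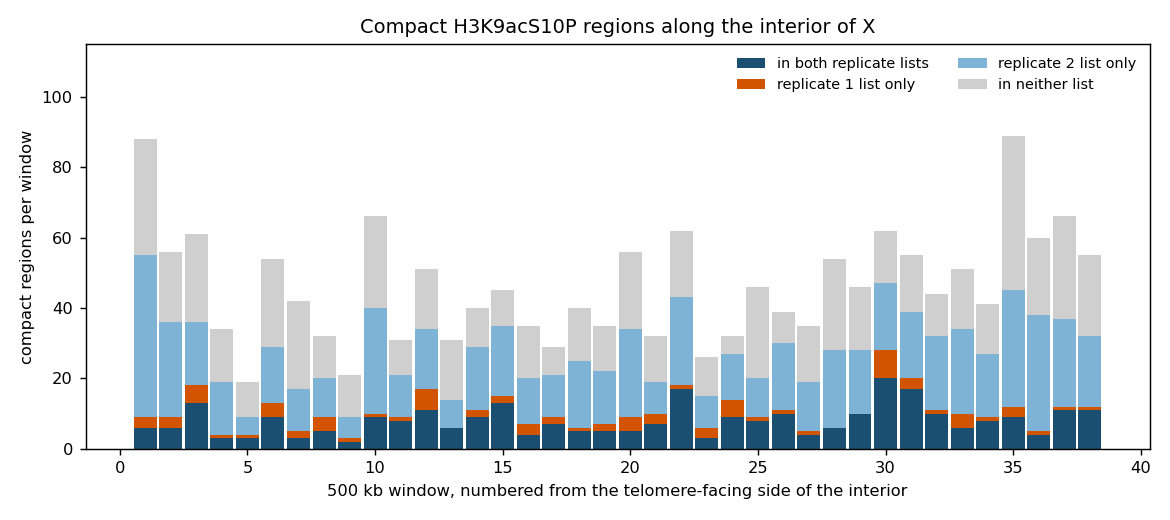
Number of compact regions in each full 500 kb window of the interior of X, in order from the telomere-facing side. Colours give the number present in both replicate lists, in 1 list or in neither. The 2 tallest bars are window 35 with 89 regions and window 1 with 88, and the lowest is window 5 with 19.

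The same windows differed in what surrounded the compact regions. In the window with 89, wider regions covered 2.82% of the bases and compact regions 30.8%, and no broad domain had its midpoint there. In X 1500001 to 2000000 the order was the opposite, with 23.3% of bases in 56 compact regions and 35.5% in 16 wider regions, of which 7 were broad domains. X 9000001 to 9500000 had few compact regions and yet 12 wider ones, 4 of them broad. Compact regions were 70.7% of all regions in that window, the lowest share, and 97.8% in the densest window, the highest. In 14 of the 38 windows there was no broad domain. Across the 38 windows, the number of compact regions and the share of bases in wider regions had a Spearman rho of 0.36. The count followed the number of compact regions in the replicate 2 list more closely (rho = 0.89) than that in the replicate 1 list (rho = 0.50). These coefficients are descriptions over windows of the same libraries.

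Many members lay close to another region. The gap from a member to the nearest region of any width had a median of 1213.5 bp, and 816 members, or 45.2%, had another region within 1 kb. The nearest region was itself compact for 1609 members, 5000 bp to 10 kb wide for 161 and a broad domain for 34. When interior regions with gaps of 5 kb or less were linked into runs, 1050 members fell into 523 runs made of compact regions alone. Of these runs, 297 held a single region, 184 held 2 to 4 and 42 held 5 or more. The other 754 members lay in 142 runs that also held a wider region.

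The longest runs of compact regions alone reached 14 members. That run, X 1095622 to 1143622, spanned 48.0 kb, and 2 of its members were in the replicate 1 list and 9 in the replicate 2 list. X 18130400 to 18170628 held 13 members, of which 1 was in replicate 1 and 8 in replicate 2. X 1417905 to 1458952 held 12, of which none was in replicate 1 and 6 in replicate 2. These 3 stretches lie in the 2 densest windows, near the ends of the interior. X 18178626 to 18210621 held 11 members, with 1 in replicate 1 and 3 in replicate 2, and none was in both. X 13546785 to 13582745 held 10, with 2 in replicate 1 and 8 in replicate 2. More members were present in replicate 2 than in replicate 1 in each of the 5 runs, as among all members, where the shares were 56.8% and 21.7%.

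Presence in the replicate lists was then counted for every member. Presence means at least 1 bp shared with a region of that replicate's own list. Of the 1804 members, 392 were present in replicate 1, a share of 21.7% (95% Wilson interval 19.9 to 23.7%), against 25.9% of all series-level regions. In replicate 2, 1025 were present, or 56.8% (54.5 to 59.1%), against 62.5% of all regions. The mean over replicates was 39.3% ± 24.8 (SD, n = 2). Replicate 2 had the longer list, with 1372 regions in the X interior against 785 in replicate 1. Both lists held 306 members, or 17.0% (15.3 to 18.8%), against 22.5% of all regions. Another 719 were in replicate 2 only, or 39.9% against 40.0%, and 86 were in replicate 1 only, or 4.77% against 3.43%. The remaining 693, or 38.4% (36.2 to 40.7%), were in neither list, against 34.1%. Among all series-level regions narrower than 5000 bp, the shares were 20.5% in replicate 1, 59.0% in replicate 2, 16.7% in both, 3.75% in replicate 1 only, 42.3% in replicate 2 only and 37.3% in neither, so the X members lay near the list as a whole. Neighbouring regions are not independent, so the intervals, which cover counting error only, are too narrow. How the series-level list was made from the samples is not stated, and it may rest on the same reads as the replicate lists, so presence in a replicate list was not treated as independent of it and was not tested. With 2 replicates of 1 group, an exact two-sided sign test cannot go below p = 0.5.

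The 4 classes of presence differed in width and score. Members in both lists had a median width of 3204.5 bp and a median score of 0.72, and held 27.6% of the bases of all members. Members in replicate 2 only had medians of 1904 bp and 0.53, and those in replicate 1 only 1662.5 bp and 0.47. Members in neither list were the narrowest, with a median of 1243 bp, and scored 0.52. Thus the lowest median score belonged to the 86 members seen in replicate 1 only. Of the members in neither list, 402 of 693, or 58.0%, were narrower than 1301 bp, the narrowest region that either replicate list holds, while the series-level list reaches down to 1001 bp. Such narrow regions were 501 of all members, or 27.8%.

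Presence rose with width in each replicate. Of the 501 members of 1001 to 1300 bp, 3.39% were present in replicate 1 and 16.4% in replicate 2, and none was in both. At 1301 to 1500 bp the shares were 6.36% and 39.4% of 236 members. At 1501 to 2000 bp they were 11.8% and 60.1% of 431 members. The largest step between classes in replicate 1 came next, at 2001 to 3000 bp, with 39.2% and 88.2% of 347 members. At 3001 to 4000 bp the shares were 50.3% and 97.7% of 177 members. All 112 members of 4001 to 4999 bp were present in replicate 2, and 84 of them, or 75.0%, in replicate 1. A wide region meets a 1 bp overlap more readily than a narrow one, and its part in this rise was not tested. Regions beyond the limit continued the series, as all 197 interior regions of 5000 bp to 10 kb and all 54 broad domains were present in replicate 2, and 84.3% and 98.1% in replicate 1.

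**Figure D2:**
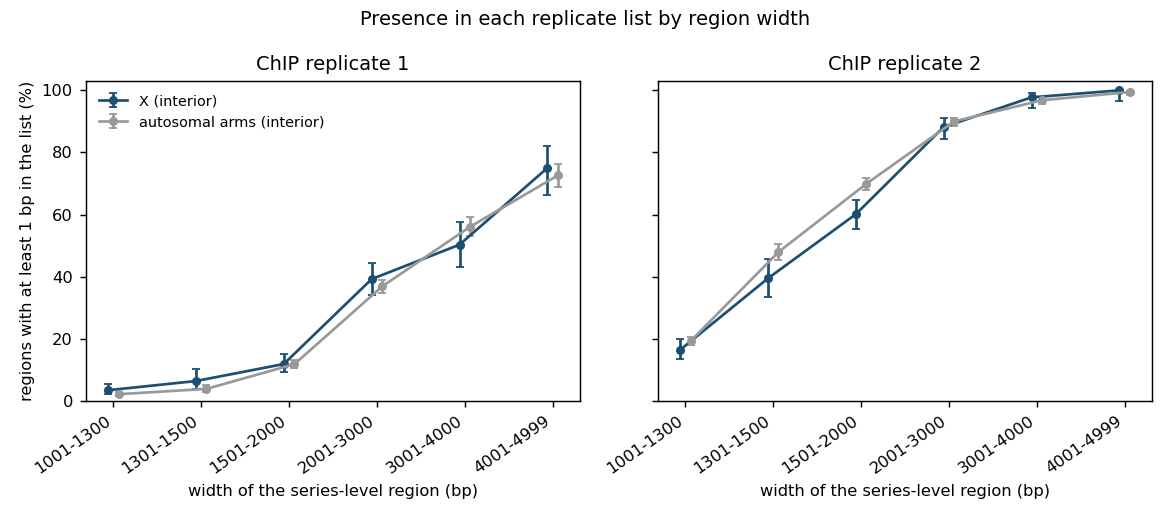
Share of compact regions with at least 1 bp in the list of replicate 1 (left) and replicate 2 (right), by region width, for the interiors of X and of the 4 large autosomal arms, with 95% Wilson intervals. The X share rises from 3.39% to 75.0% in replicate 1 and from 16.4% to 100% in replicate 2, and the autosomal shares rise alongside.

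Where a replicate region was present, its position was compared with that of the member. Presence needs at least 1 shared bp, which by itself limits the distance between the centres. In replicate 2, the region sharing most bases had its centre a median of 84 bp from the centre of the member, and 871 of 1025 members, or 85.0%, had it within 500 bp. In replicate 1 the median distance was 206.25 bp, and 293 of 392 members, or 74.7%, had it within 500 bp. The replicate regions covered a median of 95.5% of the bases of the member in replicate 2 and 76.0% in replicate 1. Replicate 1 regions were wider than their member in 67 of 392 cases and replicate 2 regions in 419 of 1025. The match was nearly one to one. In replicate 1, 382 members met a single region and 10 met more than 1, and in replicate 2 the numbers were 1000 and 25. Only 1 member in replicate 1 and 21 in replicate 2 were matched to a replicate region of 5000 bp or wider, so most members present in a list had a compact partner there.

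**Figure D3:**
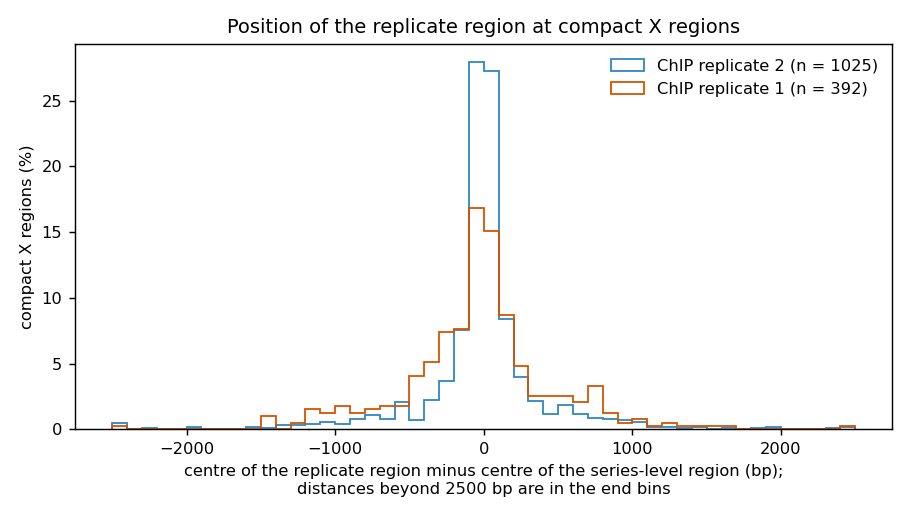
Distance in bp from the centre of each compact X region to the centre of the replicate region that shares most bases with it, as a percentage of the members present in that list. Both distributions peak at 0, with median absolute distances of 206.25 bp in replicate 1 and 84 bp in replicate 2. Presence needs at least 1 shared bp, which limits the distance.

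Read from the side of the replicates, the lists differed in where their compact regions fell. Replicate 2 had 1161 compact regions in the interior of X, of which 1003, or 86.4%, overlapped a member, 124 overlapped wider series-level regions only and 34 overlapped none. Replicate 1 had 741, of which 391, or 52.8%, overlapped a member and 334, or 45.1%, overlapped wider series-level regions only. The other 16 overlapped none. A large part of the compact regions of replicate 1 thus overlapped regions that the series-level list gives as 5000 bp or wider.

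Surroundings were divided by position alone into 3 classes. A neighbour lay 10 kb or less, edge to edge, from a broad domain. An isolated region was no neighbour and had no other region of any width within 5 kb. All others are called grouped. The classes held 131 members (7.26%), 292 (16.2%) and 1381 (76.6%). The median gap to the nearest broad domain was 120.5 kb, and 999 members, or 55.4%, were over 100 kb from one. Each neighbour was counted with its nearest broad domain only. Counted so, 47 of the 54 broad domains of the interior had at least 1 compact neighbour, up to 6. A domain can also lie within 10 kb of a member counted with another domain.

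Neighbours of broad domains were present in the replicate lists more often than isolated regions. In replicate 1, 42 of 131 neighbours were present, or 32.1% (95% Wilson interval 24.7 to 40.5%), against 34 of 292 isolated regions, or 11.6% (8.45 to 15.8%). In replicate 2 the numbers were 93, or 71.0% (62.7 to 78.1%), and 114, or 39.0% (33.6 to 44.7%). Grouped regions lay between them, at 22.9% in replicate 1 and 59.2% in replicate 2. The differences between neighbours and isolated regions were 20.4 percentage points in replicate 1 and 32.0 in replicate 2, so both replicates gave the same direction. Neighbours were also wider, with a median of 1969 bp against 1723 bp for grouped and 1390.5 bp for isolated regions. The median score hardly separated the classes, at 0.536 for neighbours, 0.535 for grouped and 0.525 for isolated regions.

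Among members of similar width the difference was smaller. When the neighbours were weighted to the width classes of the isolated regions, a choice made after the data were seen, their share was 15.6% in replicate 1 and 53.8% in replicate 2, which left differences of 3.96 and 14.8 percentage points. Among members of 2000 bp or wider, 54.7% of 64 neighbours and 52.0% of 50 isolated regions were present in replicate 1. In replicate 2 these shares were 90.6% and 90.0%. Among members under 2000 bp, replicate 1 held 10.4% of 67 neighbours (95% Wilson interval 5.15 to 20.0%) and 3.31% of 242 isolated regions (1.68 to 6.39%). Replicate 2 held 52.2% (40.5 to 63.7%) and 28.5% (23.2 to 34.5%). The separation stood among the narrower members, where neighbours were again the wider ones, with a median of 1488 bp against 1301.5 bp.

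**Figure D4:**
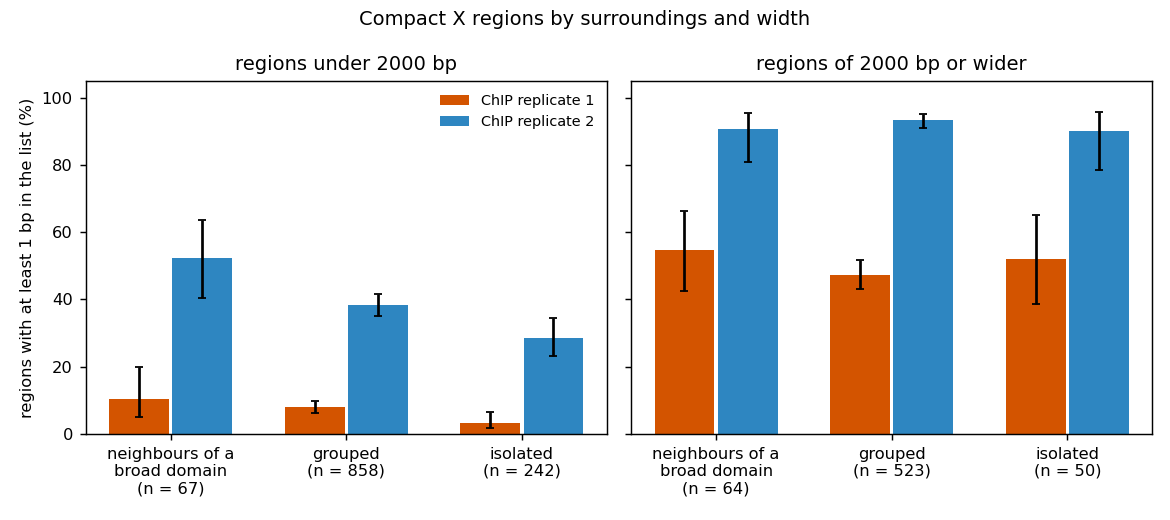
Share of compact X regions present in each replicate list, by surroundings, for members under 2000 bp (left) and of 2000 bp or wider (right), with 95% Wilson intervals. On the left the shares in replicate 2 are 52.2%, 38.3% and 28.5%, and on the right they lie between 90.0% and 93.5%.

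Distance from a broad domain showed no steady order in replicate 1. Within 2 kb of a domain, 26.4% of 53 members were present, then 22.2% of 27 at 2 to 5 kb and 43.1% of 51 at 5 to 10 kb. Beyond 10 kb the shares lay between 17.7% and 22.0%. In replicate 2 the members within 2 kb stood out, at 83.0% (95% Wilson interval 70.8 to 90.8%), against 62.2 to 63.0% in the 4 distance classes from 2 to 50 kb. At 50 to 100 kb the share in replicate 2 was 49.8% of 305 members, and beyond 100 kb it was 55.1% of 999.

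The 3 broad domains with the most compact neighbours, 6 each when a neighbour is counted with its nearest domain only, are described singly. Among all 131 neighbours, 32.1% were present in replicate 1 and 71.0% in replicate 2. Among all series-level regions the shares were 25.9% and 62.5%. With 6 adjacent regions per domain, no difference between domains is read from the counts. Around X 1349376 to 1378243, a domain of 28.9 kb, none of the 6 was present in replicate 1 and 4 were present in replicate 2. The widest of them, X 1387448 to 1390491, had a series-level score of 0.54 and scored 0.95 in replicate 2. The nearest, X 1346907 to 1348221, lay 1154 bp from the domain and was in neither list. Around X 15770778 to 15780781, of 10.0 kb, 5 of the 6 were present in replicate 1, 4 in replicate 2 and 3 in both. There X 15761456 to 15764123 had the highest score, 1.12, with 0.82 in replicate 1 and 1.38 in replicate 2. The adjoining X 15764167 to 15765444 scored 0.31 and was present in replicate 1 only, where it touched the same replicate region as its neighbour. The widest of the 3 domains was X 19521267 to 19555845. All 6 of its neighbours were present in replicate 2, and 3 of them in replicate 1. Its neighbour X 19514640 to 19519250 had a series-level score of 1.03, with 1.07 for its replicate 1 region and 1.35 for its replicate 2 region, and X 19519365 to 19520892, 374 bp from the domain, scored 0.37 and was absent from replicate 1.

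Of the 5 members farthest from any other region, 4 scored below the median of all members, and 1 was in both lists, against 17.0% of all members. X 3465964 to 3468222 had no other region within 78.0 kb, yet was in both replicate lists, with a series-level score of 0.62, a replicate 1 score of 0.58 and a replicate 2 score of 0.78. It lies in the sparsest window. X 11151930 to 11153316, 65.0 kb from any region, scored 0.32 and was in neither list. X 13890064 to 13891620, 58.1 kb from any region, scored 0.38 and was in replicate 1 only, with a score of 0.60. X 7291087 to 7293589, 54.3 kb from any region, scored 0.44 and was in neither list, although it was 2503 bp wide. X 14291932 to 14293269, 44.6 kb from any region, scored 0.33 and was in replicate 2 only, with a score of 0.53.

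The highest scores were read separately among members in both lists and among members in neither. The 10 highest-scoring members in both lists were 2590 to 4973 bp wide. Presence in both lists was the condition by which they were chosen. Each met a single region in each replicate, as most members present in a list did. The first, X 15031709 to 15034298, had a series-level score of 1.79, and its replicate 1 and 2 regions scored 1.60 and 1.99. Its edges nearly coincided with those of the replicate regions, X 15031677 to 15034280 in replicate 1 and X 15031769 to 15034290 in replicate 2. The second, X 9149345 to 9152539, scored 1.59, 1.31 and 1.87 in the same order, and was the only neighbour of a broad domain among the 10, at 6.84 kb. X 7792940 to 7797912 and X 7786237 to 7791028 lay close to each other and had series-level scores of 1.57 and 1.50. Both lay far from any broad domain, at 651.3 and 658.2 kb. Then came X 8049281 to 8053019 with 1.56, X 1932978 to 1936738 with 1.46 and X 11259828 to 11263841 with 1.42. The last 3, X 3773907 to 3776957, X 6265262 to 6267853 and X 16243462 to 16246810, scored from 1.38 to 1.40.

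Among the members in neither list, the highest scores belonged to narrow regions. The highest score of any member, 1.96, belonged to X 19842118 to 19843249, which was 1132 bp wide, and the next in this class was X 17439877 to 17440900, 1024 bp wide, with 1.86. Both exceeded every member found in the replicate lists. X 20169472 to 20170962 scored 1.20 at 1491 bp, X 11428813 to 11429866 scored 1.18 at 1054 bp and X 19832745 to 19833810 scored 1.14 at 1066 bp. Of these 5, 4 were narrower than any region of the replicate lists, and 3 were isolated. Among all 693 members in neither list, 402 were that narrow and 169 were isolated.

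Across the width classes of the series-level list, the median score first fell and then rose. The limit of the narrowest class was set at the width where the replicate lists begin. The exact width at which the score falls was therefore not located. Among X members, the median series-level score was 0.53 at 1001 to 1300 bp, 0.46 at 1301 to 1500 bp and 0.49 at 1501 to 2000 bp, and then rose to 0.58, 0.66 and 0.78 in the 3 wider classes. The narrowest members thus scored higher than those next to them in width. The autosomal arms had the same form, with 0.45, 0.39, 0.42, 0.50, 0.56 and 0.63. In the replicate 1 list, compact X regions had medians of 0.73 at 1301 to 1500 bp, 0.71 at 1501 to 2000 bp and 1.11 at 4001 to 4999 bp. In replicate 2 the medians of the same classes were 0.67, 0.67 and 0.99. Over all members, width and score had a Spearman rho of 0.39, and over the 1303 members of 1301 bp or wider it was 0.65.

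**Figure D5:**
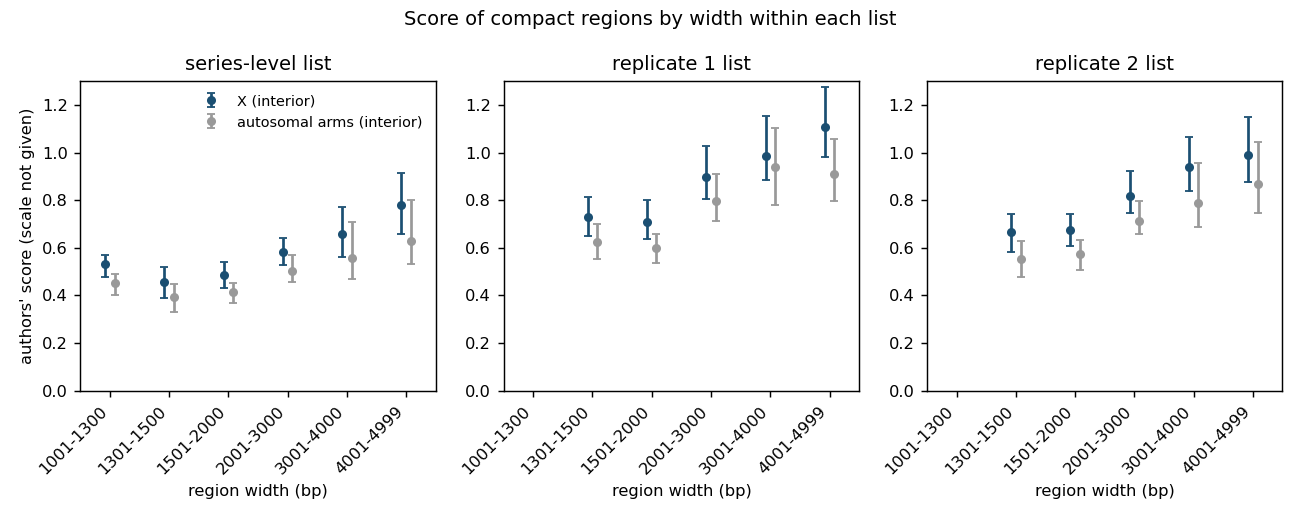
Median score of compact regions by width in the series-level list and in each replicate list, for the interiors of X and of the 4 large autosomal arms. Bars run from the lower to the upper quartile. For series-level regions the X median falls from 0.53 to 0.46 between the 2 narrowest classes and reaches 0.78 in the widest, and in each class of each list X lies above the autosomal arms.

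The scores of members kept a similar order across lists. Over the 1025 members in replicate 2, the series-level and replicate 2 scores had a Spearman rho of 0.79, and over the 392 in replicate 1 the series-level and replicate 1 scores had a rho of 0.64. Over the 306 members in both, the replicates' own scores had a rho of 0.57. The points share width and library, and members are not independent, so no p is given. Scores of different lists are given side by side, and no difference in size is read between them.

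Compared with compact regions of the 4 large autosomal arms, cut at the same distances from their ends, the X members scored higher and were of similar width, and they were fewer per Mb in the whole list, though not among regions at or above its median score, where X had 20.3 more per Mb. Their median score was 0.53 against 0.45 for 10305 autosomal regions, and their median width was 1668.5 bp against 1655 bp. The X median score exceeded the autosomal one in all 6 width classes of the series-level list and in all 5 classes of each replicate list, for example 0.58 against 0.50 at 2001 to 3000 bp among series-level regions, 0.90 against 0.80 among those of replicate 1 and 0.82 against 0.71 among those of replicate 2. Density was 92.9 per Mb on X and 121.8 on the autosomal arms, whose lowest value was 102.3 on 2L. Presence in the replicates differed little and not in 1 direction. In replicate 1 it was 21.7% for X members and 20.2% for autosomal regions, and in replicate 2 it was 56.8% and 60.4%. At or above the list's median score, presence was lower on X in both replicates, by differences of -11.8 and -9.80 percentage points. That threshold kept 74.1% of X members and 39.8% of autosomal regions. The differences in density and presence at that threshold thus compare unlike parts of the 2 groups. On the autosomal arms too, neighbours of broad domains were present more often than isolated regions, at 30.1% against 10.3% in replicate 1 and 74.5% against 44.3% in replicate 2. These differences were not tested, because regions are not replicates and the regions of X and of the autosomal arms come from the same libraries.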

How the data were processed

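H3K9acS10P ChIP was sequenced from embryos of 14 to 16 h in 2 ChIP and 2 input samples. Per the submitters' processing notes the aligner was Bowtie 0.12.7, and per the file headers positions are on FlyBase r5. The deposited lists, 1 per ChIP replicate and 1 for the series, give the position and the authors' score of each region. Not given in the sources used here are the caller, its threshold, the score's scale and the way the replicates were combined. The lists hold no read counts, so depth is unknown. No list of the input samples was used here.

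Overlaps, gaps and windows were computed in Python 3.11.15 (pandas 2.3.3, SciPy 1.17.1, NumPy 2.4.6), and the functions were tested on simulated data. Overlap needed 1 bp. Autosomal arms were cut 1 Mb from the outer end and 2 Mb from the centromere-facing end. Windows were 500 kb, with regions assigned by midpoint. Named regions followed a rule: the 10 highest-scoring members in both lists, the 5 highest in neither, the 5 most isolated, the 5 densest and sparsest windows with ties, and the 3 domains with most neighbours. Each neighbour was counted with its nearest domain only. The runs and the windows used for contrast were chosen after their values were seen. Members, classes and rules were chosen with earlier results of these data known. Groups came from the sample titles. Alternatives were a 50% overlap, scores at or above the list's median, merging at 500 bp, widths under 3000 bp, other domain and gap sizes, 1 Mb windows, single arms and single replicates.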

Additional observations from a re-analysis of the deposited data

How the results depend on the processing

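No paired analysis was possible because no value comes from a test, and the inputs, which share the replicate numbers, have no list here. Of 98 recomputed values over 17 results, 58 stayed close to the first value, 37 moved and 3 changed sign. Close meant within the interval for shares and within the spread between replicates for differences in presence. For counts, densities and score differences it meant within 1.5 times. Presence in replicate 1, replicate 2, both and neither was 24.6%, 61.7%, 21.5% and 35.3% at or above the median score, 18.1%, 53.8%, 14.3% and 42.4% with regions merged, 14.5%, 48.8%, 8.85% and 45.6% under 3000 bp, and 28.8%, 72.4%, 23.5% and 22.3% from 1301 bp up, the last added after the data were seen. A 50% overlap gave 18.5% in replicate 1 and 13.7% in both. Presence in either list was 61.6%. With 1 replicate left out it was 21.7 to 56.8%, the lower value without replicate 2. By construction these 2 values are the shares of the remaining replicate.

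Neighbours were 30.9% of members with domains of 5 kb or wider, 4.43% and 13.6% with gaps of 5 and 20 kb, and 13.2% after merging. Isolated regions were 6.93% with a 10 kb limit and 22.5% after merging. The excess of neighbours over isolated regions in presence kept its direction in every setting run. In replicate 1 it was 11.1 percentage points after merging and 3.96 at equal width classes, and in replicate 2 it was 20.6 from 1301 bp up and 14.8 at equal width classes. Their difference in median score, 0.010, was 0.0023 with a 20 kb gap and 0.025 from 1301 bp up.

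The X excess in score kept its direction in all 8 alternatives and was 0.035 at or above the median score. At that threshold, which keeps more X regions by construction, the X difference in presence was -11.8 (replicate 1) and -9.80 percentage points (replicate 2), and the difference in density turned to 20.3 per Mb. After merging, the replicate 1 difference was -0.15. The X difference in density was -9.41 per Mb against 2L and -48.4 against 2R. The sparsest 1 Mb window held 58 per Mb. The cause of these changes was not tested, and unknown depth limits all of them.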
